A study of Mus musculus with 15 samples.

Results

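*Esx1* and 8 other trophoblast-associated genes, *Plac1*, *Hand1*, *Gcm1*, *Elf5*, *Rhox5*, *Rhox6*, *Rhox9* and *Tfap2c*, were followed in erythro-myeloid progenitors (EMPs) from which the histone methyltransferase gene *Ezh2* had been deleted at either of 2 developmental stages. The 9 genes were chosen by name out of the 17454 genes of the deposited table. The choice was made because *Esx1* was high in EMPs after the earlier deletion, and the other 8 were added for their known links to the placenta, to ask whether *Esx1* is part of a wider placental programme. The values that chose *Esx1* are those of the early-deletion libraries set against the controls, so they are given as a description with no test.

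EMPs were sorted as KIT+ CD41+ CD16/32+ cells from individual yolk sacs (YS) of C57BL/6 embryos at E10.5, and RNA-seq libraries were made from 500 cells each according to the labels, while the methods of the study give fewer. *Ezh2* was deleted with Tie2-Cre, which is active in endothelium and in the cells that arise from it (Tie2-Ezh2-KO; *Ezh2*fl/fl; Tie2-CreTg/+; 5 libraries), or with Vav-Cre (the Vav-iCre strain), which becomes active when hematopoietic cells have emerged (Vav-Ezh2-KO; *Ezh2*fl/fl; Vav-CreTg/+; 5 libraries). The controls were *Ezh2*fl/fl embryos without Cre, 3 Tie2-Ezh2-WT and 2 Vav-Ezh2-WT libraries, pooled as 5 WT libraries. All 15 libraries therefore carried floxed *Ezh2*, and the WT libraries lacked Cre, so an effect of Cre itself cannot be told apart from that of the deletion. Values are RPKM, in which the reads on a gene are scaled to its length and to the reads on all genes. Libraries held between 10407398 and 41025074 reads on genes, with a median of 16091836, and whole reads per gene could be recovered from the RPKM steps.

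The trophoblast is the outer epithelial lineage of the conceptus that builds the placenta. It is renewed from stem cells held by factors such as *Elf5* and *Tfap2c*, and it branches into the exchange layer called the labyrinth, the spongiotrophoblast layer with its glycogen cells, and the giant cells that face the maternal tissue. *Ezh2* is the catalytic subunit of Polycomb repressive complex 2 (PRC2), which places H3K27me3 on genes that a cell type keeps silent.

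The labelled cell type was checked first. *Kit*, which encodes the KIT receptor used in the sort, lay between 15.2 and 45.8 RPKM in the 15 libraries, *Itga2b*, which encodes CD41, between 16.7 and 41.7 RPKM, and *Fcgr3*, which encodes CD16, between 66.9 and 194 RPKM. All 10 EMP markers listed for the check were present, *Gata1*, at 154 to 214 RPKM, was the most abundant of them by the mean of the 15 libraries (in Tie2-Ezh2-KO *Sfpi1* was), and their summed level was 499 to 679 RPKM. None of the 10 passed in any comparison with limma or limma-voom, and 3, 0 and 3 had an unadjusted p under 0.05 in Tie2-Ezh2-KO against WT, Vav-Ezh2-KO against WT and Tie2-Ezh2-KO against Vav-Ezh2-KO, beside 1552 of 14154, 1082 of 13646 and 2342 of 14120 genes. The 3 against WT were all lower in Tie2-Ezh2-KO, *Fcgr3* (-0.47, adjusted p = 0.131), *Fcgr2b*, which encodes CD32 of the gate (-0.65, adjusted p = 0.131) and *Ptprc* (-0.80, adjusted p = 0.322). Against Vav-Ezh2-KO *Fcgr3* (-0.52) and *Fcgr2b* (-0.87) were lower and *Sfpi1* (0.40) higher. The markers of the gate were thus present in every group, with these differences in level.

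*Ezh2* itself lay between 24.8 and 29.5 RPKM in Tie2-Ezh2-KO, between 30.1 and 42.0 RPKM in WT and between 33.7 and 42.4 RPKM in Vav-Ezh2-KO libraries. It fell by 0.48 on the log2(RPKM + 0.2) scale in Tie2-Ezh2-KO EMPs (standard error 0.12, adjusted p = 0.0418), and the difference was -0.02 in Vav-Ezh2-KO EMPs (adjusted p = 0.969). The deletion removes the exons of the SET domain, and RPKM is computed over the whole gene, so these values do not measure the deleted exons. The call for *Ezh2* ended in 12 of 21 alternatives, 7 of them without a single library (adjusted p 0.0802, 0.0976 and 0.0939 without Tie2-Ezh2-KO replicate 7, 11 and 17, 0.0760 and 0.114 without Tie2-Ezh2-WT replicate 4 and 10, 0.126 and 0.111 without Vav-Ezh2-WT replicate 4 and 6), and the adjusted p was 0.137 without both libraries with visceral endoderm transcripts (described next), at a difference of -0.50. Over the alternatives the adjusted p ran from 0.0134 to 0.344 and the difference from -0.56 to -0.39. The other PRC2 genes listed, *Ezh1*, *Eed* and *Suz12*, did not pass in any comparison with limma and had no unadjusted p under 0.05, and *Eed* was the most abundant at 62.1 to 103 RPKM.

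Tie2-Ezh2-KO replicate 7 and Tie2-Ezh2-WT replicate 4 stood apart in transcripts of the visceral endoderm, the epithelium that lines the YS. The summed level of 10 visceral endoderm markers was 297 RPKM in Tie2-Ezh2-KO replicate 7 and 223 RPKM in Tie2-Ezh2-WT replicate 4, and between 12.1 and 37.4 RPKM in the other 13 libraries. *Afp*, the fetal serum protein gene, was 59.9 and 48.2 RPKM in these libraries and at most 2.44 RPKM elsewhere. *Trf*, the most abundant of the list by the mean of the 15 libraries but not in Tie2-Ezh2-KO replicate 7, was 51.6 and 48.9 RPKM there and 8.36 to 23.3 RPKM elsewhere, while the defining regulator *Hnf4a* was at or under 0.128 RPKM in all 15 libraries. Where leaving out these 2 libraries ended a call, this is said beside it.

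*Esx1* encodes an X-linked homeobox protein of the chorion and labyrinth trophoblast, and is otherwise known from male germ cells. It lies on chromosome X of GRCm38 from 137115397 to 137122131. In Tie2-Ezh2-KO libraries it was 9.02, 8.96, 6.37, 6.80 and 4.0 RPKM (replicates 7, 9, 11, 13 and 17), from 103 to 292 reads each. In WT libraries it was 0.180 RPKM, 3 reads, in Tie2-Ezh2-WT replicate 4 and 0 in the other 4. All 5 Tie2-Ezh2-KO libraries were high, and the groups did not overlap.

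In Vav-Ezh2-KO libraries *Esx1* was 0.543 RPKM in replicate 9, from 16 reads, 0.109 RPKM in replicate 26, from 2 reads, and 0 in replicates 1, 10 and 28. The order of the group means was thus 7.03 ± 2.08 RPKM (SD, n = 5) in Tie2-Ezh2-KO, 0.130 ± 0.235 RPKM (SD, n = 5) in Vav-Ezh2-KO and 0.0360 ± 0.0806 RPKM (SD, n = 5) in WT, and the last 2 means differed by less than the SD of Vav-Ezh2-KO. With the reads of each group pooled, *Esx1* took 995 of 88955403 reads in Tie2-Ezh2-KO, 18 of 103738761 in Vav-Ezh2-KO and 3 of 102092929 in WT libraries. At 7.03 RPKM *Esx1* was higher than 64.5% of all genes in Tie2-Ezh2-KO EMPs, so its level was above that of the median gene.

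The choice of *Esx1* did not use the Vav-Ezh2-KO libraries. The WT libraries, which were low in *Esx1*, are shared with the comparison that chose it. The tests below are therefore not independent of the choice. Between Vav-Ezh2-KO and WT libraries *Esx1* differed by 0.32 on the log2(RPKM + 0.2) scale (standard error 0.38, limma adjusted p = 0.851), and an exact permutation test gave p = 0.722, where the smallest p that 5 against 5 libraries allow is 0.00794. Replicate 9 lay above every WT library, replicate 26 above 4 of them, and the other 3 at the WT level of 0. The share of *Esx1* in the pooled reads was 5.90 times as high in Vav-Ezh2-KO as in WT (95% exact binomial interval 1.72 to 31.3), an interval that covers counting error only and not the spread between libraries. Of the 18 Vav-Ezh2-KO reads, 16 came from replicate 9 and 2 from replicate 26, beside 3 in WT. The ratio above 1 and the difference of 0.32 thus rest on replicate 9. It was also the only library above 0.2 RPKM in this fit, so *Esx1* was tested through it alone.

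*Plac1*, an X-linked gene for a membrane-associated trophoblast protein, had reads in 4 of 5 Tie2-Ezh2-KO libraries, at a far lower level than *Esx1*. It was 0.704, 0.306, 0.252, 0.105 and 0 RPKM in replicates 7, 9, 11, 13 and 17 of Tie2-Ezh2-KO, from 12, 5, 4, 3 and 0 reads. WT libraries held 0 RPKM in 3 libraries, 0.0683 RPKM in Tie2-Ezh2-WT replicate 12 and 0.0937 RPKM in Vav-Ezh2-WT replicate 6. Vav-Ezh2-KO libraries held 0, 0.0507, 0.166, 0 and 0.391 RPKM in replicates 1, 9, 10, 26 and 28. The Tie2-Ezh2-KO range covered the ranges of both other groups, and replicate 7, the highest, is 1 of the 2 libraries with visceral endoderm transcripts. The difference from WT was 0.86 in Tie2-Ezh2-KO (standard error 0.36, adjusted p = 0.352) and 0.36 in Vav-Ezh2-KO EMPs (standard error 0.32, adjusted p = 0.810, exact permutation p = 0.405), so neither passed. Without the 2 libraries the first difference was 0.54 (adjusted p = 0.726). No WT library held *Plac1* above 0.2 RPKM, so it entered both fits through libraries with the deletion, which favours higher values there.

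2 stem cell factors of the trophoblast among the members, *Elf5* and *Tfap2c*, were at or near 0. *Elf5*, an ETS factor that maintains trophoblast stem cells, had 0 of 294787093 reads in the 15 libraries together, where a count of 0 allows a true mean of up to 3 reads. *Tfap2c*, which encodes AP-2γ and is shared by trophoblast stem cells and primordial germ cells, was 0.184, 0.256 and 0.0810 RPKM in replicates 7, 9 and 17 of Tie2-Ezh2-KO, from 9, 12 and 4 reads, and 0 in the other 12 libraries. All 25 *Tfap2c* reads thus came from 3 Tie2-Ezh2-KO libraries, and replicates 11 and 13, which held *Esx1* at 6.37 and 6.80 RPKM, had none. The difference from WT was 0.52 (standard error 0.28, adjusted p = 0.571) and did not pass. *Tfap2c* exceeded 0.2 RPKM only in Tie2-Ezh2-KO replicate 9 and entered the fit through it, which favours a higher value there. The gene was too low to be tested in Vav-Ezh2-KO against WT.

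*Gcm1* and *Hand1*, which act in differentiated trophoblast, were also at or near 0 in most libraries. *Gcm1*, which starts branching and syncytium formation in the labyrinth, had a single read, 0.0171 RPKM in Vav-Ezh2-KO replicate 28. *Hand1*, which directs giant cells and is also used in extraembryonic mesoderm and heart, was 0.360 RPKM in Tie2-Ezh2-KO replicate 17, from 11 reads, 0.142 RPKM in Vav-Ezh2-WT replicate 4 and 0.0625 RPKM in Vav-Ezh2-KO replicate 10, and 0 in the other 12 libraries. Each group held 1 library with *Hand1* reads, and the difference between Tie2-Ezh2-KO and WT was 0.14 (standard error 0.33, adjusted p = 0.957). *Hand1* exceeded 0.2 RPKM only in Tie2-Ezh2-KO replicate 17 and entered the fit through it, which favours a higher value there.

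The *Rhox* genes are X-linked homeobox genes of the reproductive organs and the placenta, and *Rhox5*, the founder of the cluster, was the only member apart from *Esx1* above 1 RPKM. It was 7.33, 0.949, 10.1, 14.6 and 51.0 RPKM in WT libraries (Tie2-Ezh2-WT replicates 4, 10 and 12, then Vav-Ezh2-WT replicates 4 and 6). Tie2-Ezh2-KO libraries held 6.43, 0.654, 14.7, 0.280 and 17.2 RPKM (replicates 7, 9, 11, 13 and 17), and Vav-Ezh2-KO libraries held 27.3, 2.51, 0.0742, 0.326 and 43.1 RPKM (replicates 1, 9, 10, 26 and 28). *Rhox5* was thus present in all 15 libraries, WT included, each group held high and low libraries, and the groups overlapped throughout.

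Between the lowest and the highest library *Rhox5* spanned 687-fold, although the lowest value rests on 1 read. Its standard deviation over the 15 libraries was 2.51 on the log2 scale, rank 4 of 14394 genes, against a median of 0.37 over these genes. *Esx1* was next, at 2.40 and rank 5, but their spreads were of different kinds: the standard deviation of *Rhox5* was 1.98 within WT, 2.39 within Tie2-Ezh2-KO and 3.28 within Vav-Ezh2-KO, and that of *Esx1* was 0.41, 0.46 and 0.82 in the same order. The difference in *Rhox5* was -1.32 in Tie2-Ezh2-KO against WT (standard error 1.04, adjusted p = 0.819) and -1.44 in Vav-Ezh2-KO against WT (standard error 1.29, adjusted p = 0.808, exact permutation p = 0.413). Neither passed, at standard errors about as large as the differences, and the sizes rested on single libraries and on the choice of WT. The first ran from -0.58 (without Tie2-Ezh2-KO replicate 13) to -2.07 (without Tie2-Ezh2-WT replicate 10) with 1 library left out and was -0.27 with Tie2-Ezh2-WT libraries alone. The second ran from -0.53 (without Vav-Ezh2-KO replicate 10) to -2.35 (without Vav-Ezh2-KO replicate 28), was -0.91 with a pseudocount of 1 and -3.01 with Vav-Ezh2-WT libraries alone, and no alternative passed.

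*Rhox6* and *Rhox9*, neighbours of *Rhox5* known from placenta and germ cells, were nearly silent. *Rhox6* had 3 reads in Tie2-Ezh2-WT replicate 4 (0.333 RPKM) and 2 in Tie2-Ezh2-KO replicate 11 (0.156 RPKM), and *Rhox9* had 2 reads in Vav-Ezh2-KO replicate 1 (0.0803 RPKM). The 3 genes lie close together on chromosome X, *Rhox5* from 37754608, *Rhox6* from 37827055 and *Rhox9* from 37899097, so the high *Rhox5* of some libraries was not accompanied by its neighbours. Of 32 *Rhox* cluster genes listed, 8 were in the table, 3 of these were at 0 in every library and 6 never rose above 0.2 RPKM, so *Rhox5* and *Rhox6* were tested, and neither passed with limma or limma-voom or had an unadjusted p under 0.05.

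The X-linked members were also set against the sex of the embryo, since both sexes were used. Transcripts of 4 Y-linked genes were at 0 in Tie2-Ezh2-WT replicates 4 and 10, Tie2-Ezh2-KO replicate 11 and Vav-Ezh2-KO replicate 28, and summed to 40.9 to 56.5 RPKM in the other 11 libraries. *Esx1* in the Tie2-Ezh2-KO library without Y-linked reads, 6.37 RPKM, lay inside the range of the 4 with them, 4.0 to 9.02 RPKM. *Rhox5* was 0.949 to 43.1 RPKM in the 4 libraries without Y-linked reads and 0.0742 to 51.0 RPKM in the other 11. Within WT, *Rhox5* was 0.949 to 7.33 RPKM in the 2 libraries without Y-linked reads and 10.1 to 51.0 RPKM in the 3 with them, while in Vav-Ezh2-KO the library without them, at 43.1 RPKM, lay above the 4 with them, at 0.0742 to 27.3 RPKM. In Tie2-Ezh2-KO the library without them, at 14.7 RPKM, lay among the others, so the order by sex differed between groups.

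**Figure D1:**
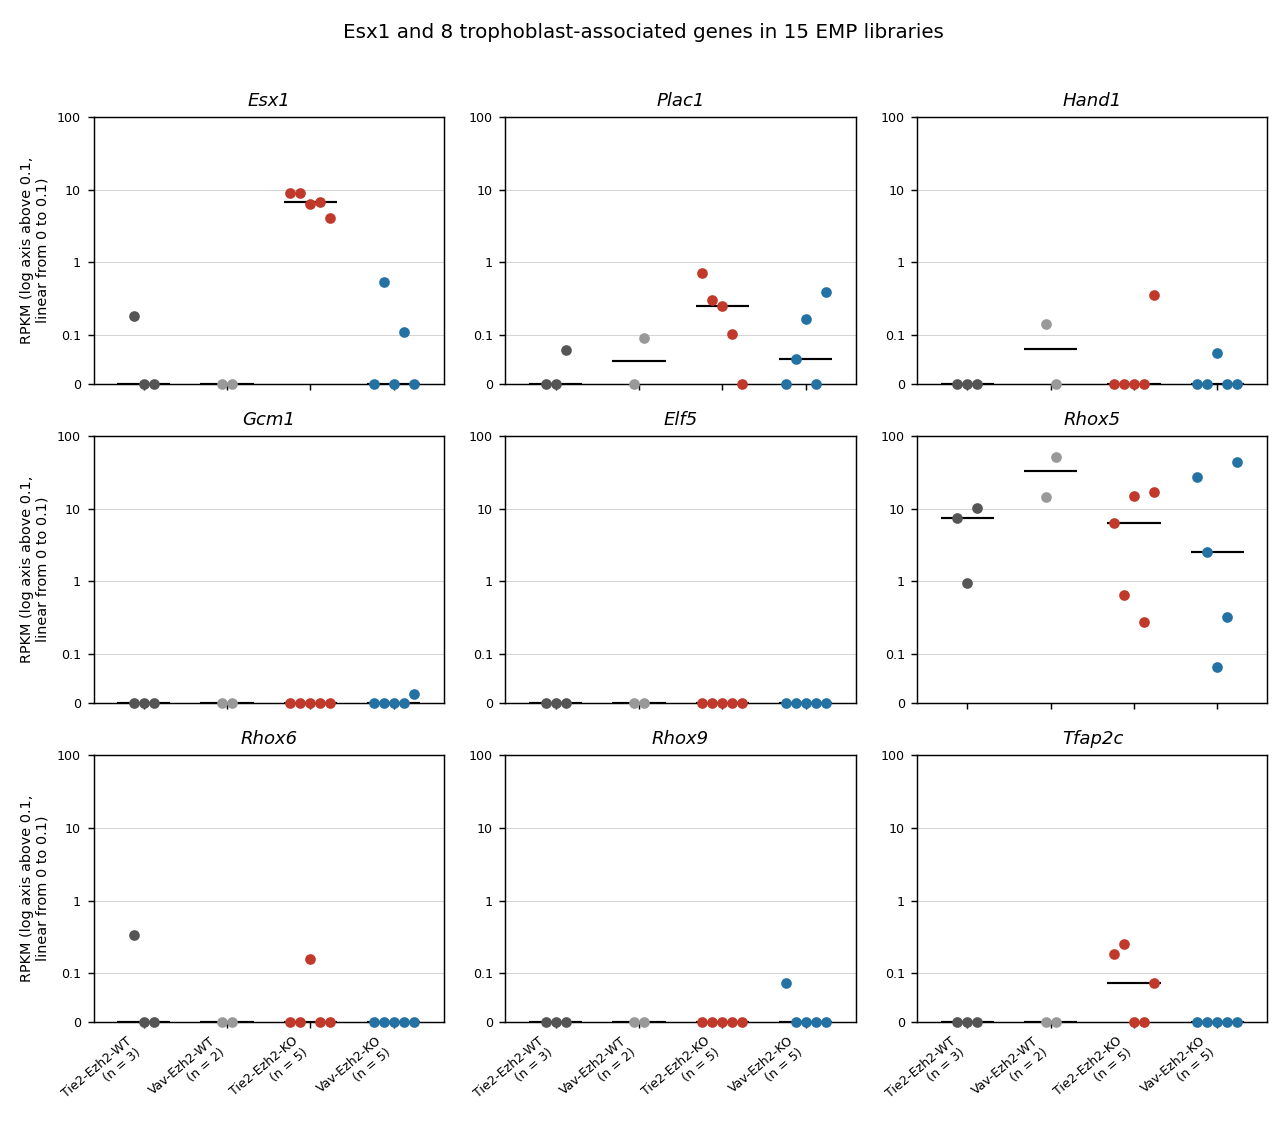
RPKM of the 9 genes in each of the 15 libraries (points) by group, with the group median as a line, on an axis that is logarithmic above 0.1 and linear below it. *Esx1* sits between 4.0 and 9.02 RPKM in Tie2-Ezh2-KO libraries and at or under 0.543 RPKM elsewhere, *Rhox5* is scattered from 0.0742 to 51.0 RPKM in all groups, and the other 7 genes are under 1 RPKM.

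Over the members, 6 of 9 exceeded 0.2 RPKM in a library of the Tie2-Ezh2-KO against WT fit, and 1 of these, *Esx1*, was called, in a comparison in which 2.73% of 14154 genes were called. This comparison includes the values that chose *Esx1*, so nothing is read from the count, and the other 5 did not pass. Of the 6, 4 (*Esx1*, *Plac1*, *Hand1* and *Tfap2c*) exceeded 0.2 RPKM in no WT library. They entered through a Tie2-Ezh2-KO library, which favours higher values there. In Vav-Ezh2-KO against WT, where 0.00733% of 13646 genes passed, none of the 4 tested members passed with limma, none had an unadjusted p under 0.05 and none passed with limma-voom. In Tie2-Ezh2-KO against Vav-Ezh2-KO, where 3.51% of 14120 genes passed, 1 of 5 was called, again *Esx1*, whose difference of 4.62 there and 4.94 against WT is given as a description. The first 2 comparisons share their WT libraries and the first and the last share the Tie2-Ezh2-KO libraries, so these are not separate observations.

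The wider placental programme was examined in 5 lists of trophoblast genes, which without the 9 members named 76 genes. Of these, 50 were in the table and the others were not analysed here. Among those left out were *Tpbpa* and *Tpbpb* of the spongiotrophoblast list, *Syna* and *Dlx3* of the labyrinth list and *Ctsq* of the giant cell list. The list counts therefore say nothing about these genes. In Tie2-Ezh2-KO against WT 33 could be tested and 5 passed, 4 higher and 1 lower, beside 386 of all 14154 genes (2.73%), 343 higher and 43 lower. The median difference of the 33 was 0.18, beside 0.01 over all genes tested, but 6 of the 33 exceeded 0.2 RPKM in no WT library and so entered through a Tie2-Ezh2-KO library, which favours higher values there. Over the other 27 it was 0.08, beside -0.01 over the 13100 genes that exceeded 0.2 RPKM in a WT library, and all 5 calls were among the 27. In Vav-Ezh2-KO against WT none of 29 passed with limma or limma-voom. Of the 29, 3 had an unadjusted p under 0.05, beside 1082 of 13646 genes, and the median was 0.02 beside -0.02. In Tie2-Ezh2-KO against Vav-Ezh2-KO 9 of 31 had an unadjusted p under 0.05, beside 2342 of 14120 genes. Of the 31, 6 passed, 4 higher and 2 lower, beside 495 of 14120 genes, 372 higher and 123 lower. That count was 3 of 29 without Tie2-Ezh2-KO replicate 7 and 3 of 31 without Vav-Ezh2-KO replicate 9 (*Ascl2*, *Phlda2* and *Krt18* each time), 2 of 31 without the trend, and 4 to 7 otherwise. Without the 2 libraries with visceral endoderm transcripts, 3 of 29 passed in Tie2-Ezh2-KO against WT, all higher, *Ascl2*, *Phlda2* and *Krt18*. In bulk libraries a higher level in every cell and a few cells with a high level cannot be told apart.

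Of the 4 higher genes 2 came from the spongiotrophoblast and glycogen cell list, of which 5 of 13 genes were in the table and 2 of 4 tested passed, both higher. *Ascl2* is an imprinted basic helix-loop-helix factor needed for the spongiotrophoblast, on chromosome 7 from 142966822 to 142969264. It was 11.6, 4.51, 6.53, 9.92 and 9.91 RPKM in replicates 7, 9, 11, 13 and 17 of Tie2-Ezh2-KO. WT libraries held 1.19, 1.14, 0.862, 0.0833 and 1.37 RPKM, and Vav-Ezh2-KO libraries 1.05, 1.58, 0.957, 1.73 and 0.518 RPKM. All Tie2-Ezh2-KO libraries exceeded all 10 others, and the WT and Vav-Ezh2-KO ranges overlapped. *Ascl2* was higher by 3.08 against WT (standard error 0.43, adjusted p = 8.75e-04, 5 of 5 libraries) and by 2.68 against Vav-Ezh2-KO (standard error 0.32, adjusted p = 3.73e-04), and 0.41 apart between Vav-Ezh2-KO and WT (standard error 0.44, adjusted p = 0.844).

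*Phlda2*, an imprinted gene that restrains placental growth and the most abundant of the same list, lies on chromosome 7 from 143501545 to 143503145. It was 20.9, 24.5, 21.5, 29.4 and 16.2 RPKM in replicates 7, 9, 11, 13 and 17 of Tie2-Ezh2-KO. WT libraries held 5.35, 0.0858, 1.16, 0.456 and 2.58 RPKM, and Vav-Ezh2-KO libraries 0.336, 1.77, 5.15, 0.825 and 0.756 RPKM. The Tie2-Ezh2-KO libraries again lay above all others. *Phlda2* was higher by 4.08 against WT (standard error 0.59, adjusted p = 0.00110) and by 3.98 against Vav-Ezh2-KO (standard error 0.46, adjusted p = 2.94e-04), and the difference between Vav-Ezh2-KO and WT was 0.10 (standard error 0.73, adjusted p = 0.982). *Ascl2* and *Phlda2* passed against WT in all 21 alternatives, with an adjusted p of 2.02e-04 to 0.00746 and 2.49e-04 to 0.00904, and with 8.50 and 22.5 RPKM in Tie2-Ezh2-KO EMPs they stood at or above the level of *Esx1*. *Flt1* and *Egfr* of the same list did not pass, at 0.0519 to 1.03 RPKM and at 0 outside 1 library. *Ascl2* and *Phlda2*, both imprinted, lie within 1 Mb of each other on chromosome 7. Their calls need not be separate observations, and a shared change of the region was not tested.

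The counts by list include members. Of 12 stem and progenitor factors, among them *Elf5* and *Tfap2c*, none of the 6 tested (*Tfap2c* is 1) passed against WT with limma or limma-voom, and none had an unadjusted p under 0.05. The median difference was 0.18 beside 0.01, and -0.03 beside -0.01 over the 4 that exceeded 0.2 RPKM in a WT library. Their most abundant gene, *Ets2*, which blood cells also use, was 3.13 to 8.37 RPKM throughout. *Eomes*, a T-box factor of trophoblast stem cells, was 0.0676, 0.247 and 0.0167 RPKM in replicates 7, 9 and 17 of Tie2-Ezh2-KO and 0 in the other 12 libraries. *Cdx2* had 1 read, in Tie2-Ezh2-WT replicate 4, and *Esrrb* had none. *Tfap2c* and *Eomes* thus had their reads in the same 3 Tie2-Ezh2-KO libraries, while *Esx1* was high in all 5.

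In the labyrinth list, which names *Gcm1* (not tested), 1 of 9 tested genes passed against WT. This was *Met*, the receptor for hepatocyte growth factor, at 1.5, 0.767, 0.568, 1.48 and 2.34 RPKM in replicates 7, 9, 11, 13 and 17 of Tie2-Ezh2-KO and 0.0722 to 0.625 RPKM in WT libraries. The ranges overlapped in 1 library, and the difference was 1.78 (standard error 0.39, adjusted p = 0.0223). The call ended without Tie2-Ezh2-KO replicate 7, 13 and 17 (adjusted p 0.0596, 0.0549 and 0.0599), Tie2-Ezh2-WT replicate 4 and 12 (0.0622 and 0.0600) and Vav-Ezh2-WT replicate 4 (0.0571), and without both libraries with visceral endoderm transcripts, where it was 0.137 at a difference of 1.56 (0.00834 to 0.137 over 21 alternatives). *Synb*, the syncytin gene of the labyrinth, had reads only in Vav-Ezh2-WT replicate 4, at 0.0559 RPKM, and *Ly6e*, the receptor of the other syncytin and the most abundant gene of the list, was 139.9 to 332 RPKM and did not pass in any comparison.

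No giant cell gene passed in any comparison with limma. Of 20 listed, 11 were in the table and 6, *Hand1* among them, were tested against WT, 1 with an unadjusted p under 0.05 and none with limma-voom. The most abundant was *Ctsl*, a lysosomal protease of many cell types, at 18.1 to 39.4 RPKM. The 7 placental prolactin genes of the table, hormones of giant cells and spongiotrophoblast, had reads in a single library, Tie2-Ezh2-KO replicate 7, with 0.0721 to 0.238 RPKM each and 1.01 RPKM together, and *Psg22*, a placental glycoprotein gene, had 0.335 RPKM in that library and 0 elsewhere. *Psg22* and the prolactin genes outside the list were picked after their values were seen. Listed genes of the *Psg22* family did not share its pattern. *Psg23* was 0.115 to 0.557 RPKM over all libraries, and *Psg16* had reads only in Vav-Ezh2-WT replicate 6, at 0.0878 RPKM.

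Of 22 other placenta-enriched genes, 11 were tested against WT, of which *Plac1* is 1, and 2 passed in opposite directions. *Krt18*, an epithelial keratin, was 36.4, 26.5, 23.9, 15.7 and 25.1 RPKM in replicates 7, 9, 11, 13 and 17 of Tie2-Ezh2-KO and 11.5 to 17 RPKM in WT libraries, a rise of 0.90 (standard error 0.19, adjusted p = 0.0199). The call ended without Tie2-Ezh2-KO replicate 7 (adjusted p 0.0534) and Vav-Ezh2-WT replicate 4 and 6 (0.0598 and 0.0541), with Tie2-Ezh2-WT libraries alone as WT (0.179), without the trend and with limma-voom (0.00323 to 0.179 over 21 alternatives). *Krt8*, the partner keratin of *Krt18*, did not pass, at 1.23 to 4.42 RPKM. *Cited2*, a transcriptional coregulator of placenta and blood stem cells, was 61.0 to 72.5 RPKM in Tie2-Ezh2-KO and 85.8 to 121 RPKM in WT libraries, and fell by 0.62 (standard error 0.11, adjusted p = 0.00665). That call ended without both libraries with visceral endoderm transcripts, with an adjusted p of 0.0633 at a difference of -0.53 (9.94e-04 to 0.0633 over 21 alternatives).

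*Krt18* and *Cited2* also passed against Vav-Ezh2-KO, by 0.88 (standard error 0.19, adjusted p = 0.0181, 0.00275 to 0.0554 over 19 alternatives) and -0.42 (standard error 0.09, adjusted p = 0.0222). A further pair, *Cited1* and *Plac8*, passed there and not against WT with all libraries. *Cited1*, a coregulator of the spongiotrophoblast, was 1.15 to 3.68 RPKM in Tie2-Ezh2-KO and 0 to 1.48 RPKM in Vav-Ezh2-KO libraries, 2.17 higher (standard error 0.56, adjusted p = 0.0450). In WT it was 3.61 RPKM in Tie2-Ezh2-WT replicate 4, 1 of the 2 libraries with visceral endoderm transcripts, and 0.375 to 0.883 RPKM in the others. The difference from WT was 1.24 (adjusted p = 0.255), 1.69 without that library (adjusted p = 0.0199, which passed) and 1.54 without both (adjusted p = 0.0588). *Plac8*, the most abundant gene of its list and a gene of myeloid cells as well as placenta, was 46.2 to 95.4 RPKM in Tie2-Ezh2-KO and 92.2 to 188 RPKM in Vav-Ezh2-KO libraries, 0.90 lower in Tie2-Ezh2-KO (standard error 0.21, adjusted p = 0.0265). WT libraries lay between, at 75.5 to 128.6 RPKM. Against WT *Plac8* differed by -0.46 in Tie2-Ezh2-KO (adjusted p = 0.316) and by 0.44 in Vav-Ezh2-KO (adjusted p = 0.596). Leaving out 1 library ended the call of *Cited2* (Tie2-Ezh2-KO replicate 7 and 11, adjusted p 0.0655 and 0.0531, Vav-Ezh2-KO replicate 9 and 26, 0.0559 and 0.0627), of *Cited1* (Tie2-Ezh2-KO replicate 7, 11 and 13, 0.105, 0.101 and 0.0801, Vav-Ezh2-KO replicate 1, 9 and 28, 0.102, 0.105 and 0.0716) and of *Plac8* (Tie2-Ezh2-KO replicate 7, 0.0615, Vav-Ezh2-KO replicate 1, 9 and 28, 0.0671, 0.0701 and 0.0793). Processing choices also ended calls. That of *Krt18* ended without the trend and with limma-voom, that of *Cited2* without the trend and with a common median. The call of *Plac8* ended without the filter and, separately, without the trend. *Cited1* lost its call in 12 of 19 alternatives, among them a pseudocount of 0.05, no filter, no trend, quantile normalization and limma-voom. Over all 19 alternatives the adjusted p was 0.0141 to 0.0838 for *Cited2*, 0.0168 to 0.105 for *Cited1* and 0.0100 to 0.0860 for *Plac8*. Without Tie2-Ezh2-KO replicate 7 the 3 differences were -0.38, 2.02 and -0.90.

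**Figure D2:**
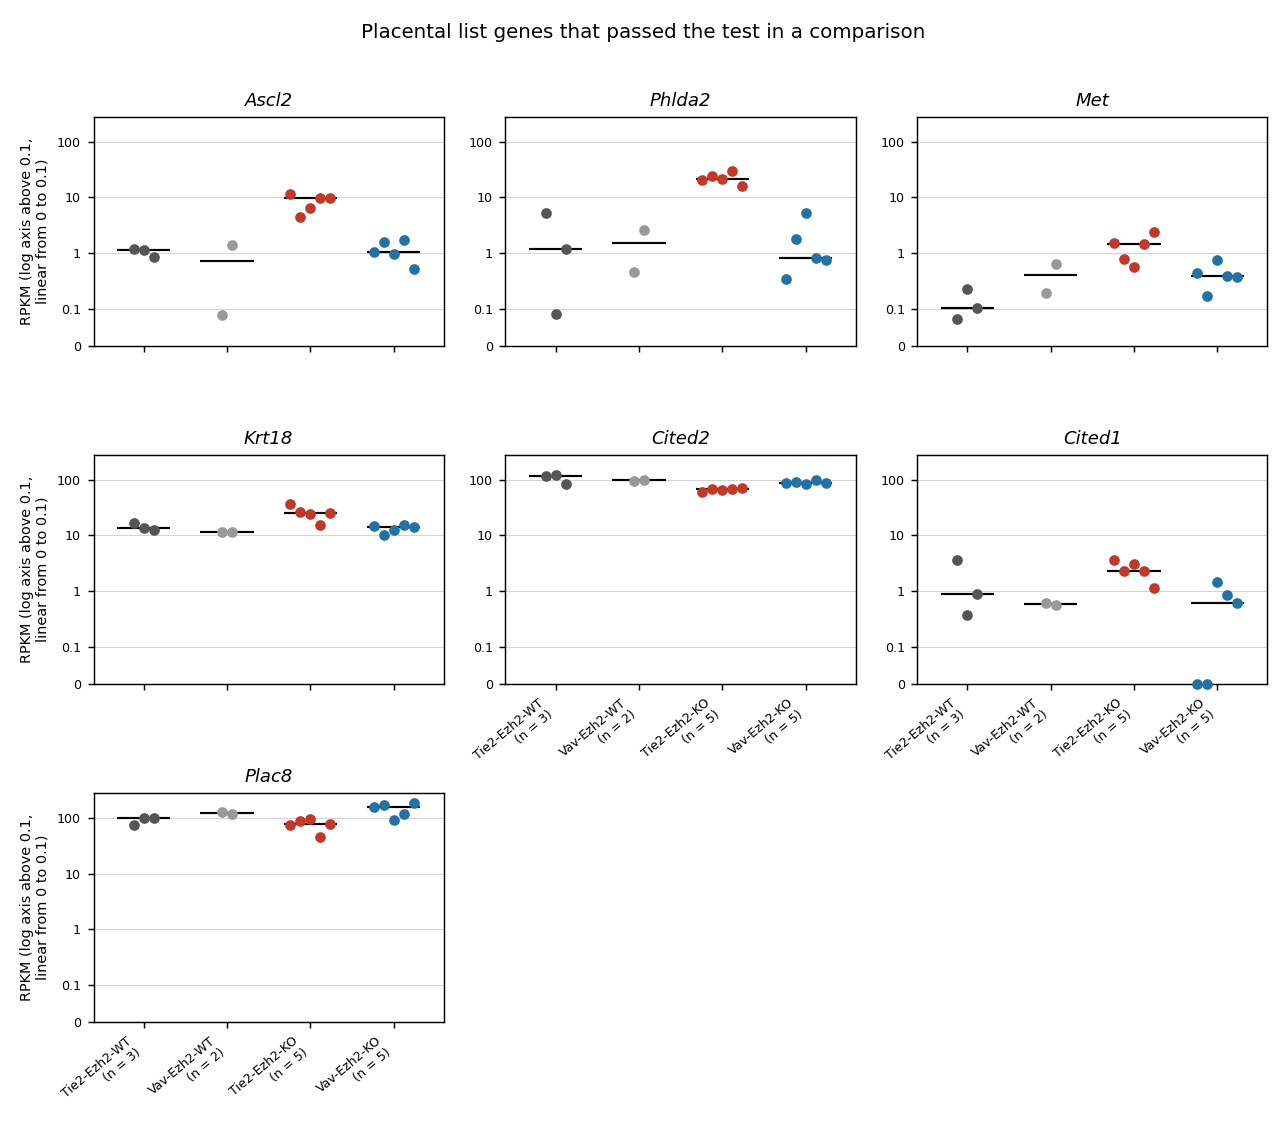
RPKM in each of the 15 libraries (points) by group, with the group median as a line, for the 7 genes of the placental lists that passed the test in a comparison, on an axis that is logarithmic above 0.1 and linear below it. *Ascl2* (4.51 to 11.6 RPKM) and *Phlda2* (16.2 to 29.4 RPKM) in Tie2-Ezh2-KO libraries lie above every other library, *Met*, *Krt18*, *Cited1* and *Plac8* overlap with other groups, and *Cited2* (61.0 to 72.5 RPKM) lies below every other library.

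Whether the 2 deletions differed in their effects, each against the WT of its own line, was tested over all 15 libraries, where 0.181% of 14394 genes passed. None of the 33 placental list genes tested outside the members passed with limma, and 6 had an unadjusted p under 0.05, beside 942 of all 14394 genes. *Ascl2* differed by 1.76 (standard error 0.71, adjusted p = 0.618) and *Phlda2* by 4.05 (standard error 1.17, adjusted p = 0.264). The calls above are therefore not shown to belong to the earlier deletion alone by this test, which rests on 2 Vav-Ezh2-WT libraries.

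Genes of other tissues near the EMPs were read for comparison. In the visceral endoderm list, 1 of 8 tested genes passed against WT, *Amn*, the membrane partner of cubilin, at 1.52 to 4.66 RPKM in Tie2-Ezh2-KO, 0 to 0.798 RPKM in WT and 0 to 0.176 RPKM in Vav-Ezh2-KO libraries. The rise was 3.01 (standard error 0.45, adjusted p = 0.00155). *Amn* was at least 1.52 RPKM in all 5 Tie2-Ezh2-KO libraries, while *Afp* was high in 1 of them and *Hnf4a* at or under 0.128 RPKM. In the extraembryonic mesoderm and mesenchyme list, 8 of 12 genes never exceeded 0.2 RPKM and 1 of 4 tested passed, *Bmp4*, a signalling ligand of extraembryonic ectoderm and mesoderm and the most abundant of the list in Tie2-Ezh2-KO (*Pdgfrb* was in WT and Vav-Ezh2-KO), at 0.879 to 5.94 RPKM in Tie2-Ezh2-KO and 0 to 0.530 RPKM in WT libraries (3.08 higher, standard error 0.48, adjusted p = 0.00216). In Vav-Ezh2-KO libraries *Bmp4* was 0 to 1.36 RPKM, and replicates 9 and 26 lay above Tie2-Ezh2-KO replicate 13. Against Vav-Ezh2-KO it was 2.48 higher (standard error 0.58, adjusted p = 0.0265), a call that ended in 10 of 19 alternatives. The summed level of that list was 2.78 to 7.58 RPKM in Tie2-Ezh2-KO and 1.55 to 3.80 RPKM in the other libraries.

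In the decidua list, of which *Cryab* was the most abundant at 0.724 to 4.38 RPKM, 1 of 5 tested genes passed against WT, the muscle and decidua intermediate filament gene *Des* (0.0913 to 1.39 RPKM in Tie2-Ezh2-KO, 0 to 0.0937 RPKM in WT, 1.64 higher, standard error 0.38, adjusted p = 0.0302). Vav-Ezh2-KO libraries held *Des* at 0 to 0.404 RPKM, and the difference of 1.08 from them did not pass (standard error 0.43, adjusted p = 0.205). *Des* exceeded 0.2 RPKM in no WT library and so entered through Tie2-Ezh2-KO libraries, and none of the 3 decidua genes above 0.2 RPKM in a WT library passed. The call of *Des* ended in 12 of 20 alternatives (adjusted p 0.00461 to 0.136), among them without Tie2-Ezh2-KO replicate 7, 11, 13 and 17 (0.0667, 0.0742, 0.0518 and 0.0602), Tie2-Ezh2-WT replicate 4, 10 and 12 (0.0694, 0.0649 and 0.0726) and Vav-Ezh2-WT replicate 6 (0.0740) and without the 2 libraries with visceral endoderm transcripts (0.136, difference 1.60). Among 6 tested primordial germ cell markers none passed against WT with limma or limma-voom, and 2 had an unadjusted p under 0.05. *Prdm1*, a repressor of both germ cells and blood cells, was 0.0122 to 0.341 RPKM in Tie2-Ezh2-KO and 0.496 to 0.828 RPKM in Vav-Ezh2-KO libraries and fell by 1.27 (adjusted p = 0.0266, 0.0105 to 0.0731 over 18 alternatives), a call that ended without Tie2-Ezh2-KO replicate 7 and 17 (0.0689 and 0.0631) and Vav-Ezh2-KO replicate 1, 9, 26 and 28 (0.0510, 0.0566, 0.0648 and 0.0731). The most abundant of that list was *Nanog*, at 26.4 to 70.7 RPKM in every group, which is uncertain because *Nanog* has near-identical copies that can share reads. In Tie2-Ezh2-KO against WT the median difference was 0.57 over the visceral endoderm list, -0.07 over the mesoderm list, 0.61 over the decidua list and -0.02 over the germ cell list, beside 0.18 over the placental lists and 0.01 over all genes. Without the 2 libraries with visceral endoderm transcripts these medians were 0.79, -0.03, 0.52 and 0.24, beside 0.29 and 0.01. Over genes that exceeded 0.2 RPKM in a WT library they were 0.63, -0.07, 0.57 and -0.02, beside 0.08 and -0.01. Against Vav-Ezh2-KO the 4 medians were 1.71, 0.11, 0.60 and -0.31, beside 0.31 over the placental lists and 0.04 over all genes, and without Tie2-Ezh2-KO replicate 7 they were 0.75, 0.08, 0.32 and -0.19, beside 0.29 and 0.03. Over genes that exceeded 0.2 RPKM in a Vav-Ezh2-KO library they were 1.71, 0.11, -0.04 and -0.31, beside 0.22 and 0.02. The part of cells of these tissues in the placental transcripts was not tested.

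The 8 genes whose log2(RPKM + 0.2) followed *Esx1* most closely over the 15 libraries, out of 14393, were *Kdelr3* (Pearson r = 0.972), *Rln3* (0.968), *Tdrkh* (0.959), *Bmi1* (0.958), *Utf1* (0.957), *Acsl6* (0.954), *Tcfl5* (0.949) and *Gatm* (0.947). They have varied roles: *Kdelr3* returns proteins to the endoplasmic reticulum, *Rln3* is a relaxin peptide, *Tdrkh* acts in the piRNA pathway, *Bmi1* is a subunit of Polycomb repressive complex 1, *Utf1* is a chromatin protein of pluripotent cells, *Acsl6* activates fatty acids, *Tcfl5* is a germ cell factor and *Gatm* makes the precursor of creatine. None of the 8 is in the trophoblast and placenta lists, and none lies within 1 Mb of *Esx1*. The points share the group structure, since in all 8 genes every Tie2-Ezh2-KO library exceeded every other library, and within the 5 Tie2-Ezh2-KO libraries alone r ran from -0.49 for *Tcfl5* to 0.76 for *Kdelr3*. How many of all genes separate in this way, as *Esx1*, *Ascl2* and *Phlda2* also did, was not counted.

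By Spearman's rho 2 of these 8 were still among the first 8, *Kdelr3* (0.933) and *Utf1* (0.919), and within the Tie2-Ezh2-KO libraries none was. *Kdelr3* was 4.93, 3.66, 3.72, 3.16 and 2.90 RPKM in replicates 7, 9, 11, 13 and 17 of Tie2-Ezh2-KO, 0 in all WT libraries, and 0.499 and 0.615 RPKM in replicates 9 and 26 of Vav-Ezh2-KO. Among the placental list genes the closest to *Esx1* over the 15 libraries were *Ascl2* (r = 0.90, rank 52) and *Phlda2* (r = 0.88, rank 85). *Tfap2c* (0.68) and *Plac1* (0.50) were further down at ranks 645 and 1635. These r share the group structure and rest on the values that chose *Esx1*, so they are given as a description and nothing is read from them.

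Position on the chromosome was examined for the genes whose start lies within 1 Mb of the start of *Esx1*. The table held 19 of them, 16 were tested in Tie2-Ezh2-KO against WT, and 1 passed, where 2.73% of all genes did, with a median difference of 0.13 beside 0.01 over all genes. The nearest, *Fam199x*, which starts at 137049594, was 0.613 to 1.39 RPKM in all 15 libraries and differed by 0.20 (standard error 0.28, adjusted p = 0.917). The gene that passed was *Bex1*, which starts at 136213972 and encodes an adaptor protein of the brain, at 36.9 to 62.9 RPKM in Tie2-Ezh2-KO and 15.6 to 32.8 RPKM in WT libraries, a rise of 1.07 (standard error 0.20, adjusted p = 0.00675). *Esx1*, at or near 0 in WT EMPs, thus lay within 1 Mb of abundant transcripts, such as *Morf4l2*, which encodes a chromatin protein, at 140.0 to 201 RPKM and *Ngfrap1*, which encodes a cell death adaptor, at 113 to 179 RPKM.

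Promoter sequence is a property that the choice of the genes did not use. RefSeq promoters of GRCm38.p6, 250 bases before to 50 after a transcript start, were matched for 5 of the 9 members (*Esx1*, *Plac1*, *Gcm1*, *Elf5* and *Rhox5*) and for all 5 list genes that passed against WT, and the dinucleotide CG was counted in each, since PRC2 is known to occupy CG-rich promoters. The median of all 32851 promoters was 7 CG. *Esx1* had 24, a count that 20% of promoters reach, and the 4 other members matched had 10 or fewer: 3 and 6 in the promoters of *Plac1*, 5 in *Rhox5*, 3 and 10 in those of *Elf5*, and 1 in *Gcm1*. The list genes had 34 (*Met*), 29 (*Cited2*), 26 (*Phlda2*), 23 (*Ascl2*) and 17 (*Krt18*), counts that 7.73%, 12.9%, 16.9%, 21.5% and 31.4% of promoters reach. The other 4 members were not counted, nor were the list genes outside the members that did not pass against WT. Genes that passed and genes that did not can therefore not be compared by these counts. *Cited2*, with 29, was lower in Tie2-Ezh2-KO. The count is no measure of PRC2 binding.

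The promoters of *Esx1* (chrX:137120277-137120576, minus strand), *Ascl2* (chr7:142969215-142969514, minus strand), *Phlda2* (chr7:143502475-143502774, minus strand) and *Gcm1* (chr9:78051708-78052007, plus strand) are shown 5′ to 3′ with every CG in capitals, because they set side by side the 3 placental genes that were high in all 5 Tie2-Ezh2-KO libraries and a member that had a single read. The windows of *Esx1* and *Phlda2* lie inside the gene spans given above. *Gcm1* has the lowest of the counts given above, so these windows are not typical of the genes counted.
*Esx1*: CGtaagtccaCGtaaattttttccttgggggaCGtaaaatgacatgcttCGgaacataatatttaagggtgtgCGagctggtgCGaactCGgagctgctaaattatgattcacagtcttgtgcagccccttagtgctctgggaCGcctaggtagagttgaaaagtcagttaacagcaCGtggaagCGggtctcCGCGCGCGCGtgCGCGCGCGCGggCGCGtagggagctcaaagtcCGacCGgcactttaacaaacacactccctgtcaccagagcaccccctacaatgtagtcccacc
*Ascl2*: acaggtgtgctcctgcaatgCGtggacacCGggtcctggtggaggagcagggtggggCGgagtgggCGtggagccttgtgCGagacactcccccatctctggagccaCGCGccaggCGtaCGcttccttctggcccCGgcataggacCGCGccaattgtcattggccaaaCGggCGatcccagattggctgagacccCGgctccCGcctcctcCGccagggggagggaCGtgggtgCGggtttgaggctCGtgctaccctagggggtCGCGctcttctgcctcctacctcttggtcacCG
*Phlda2*: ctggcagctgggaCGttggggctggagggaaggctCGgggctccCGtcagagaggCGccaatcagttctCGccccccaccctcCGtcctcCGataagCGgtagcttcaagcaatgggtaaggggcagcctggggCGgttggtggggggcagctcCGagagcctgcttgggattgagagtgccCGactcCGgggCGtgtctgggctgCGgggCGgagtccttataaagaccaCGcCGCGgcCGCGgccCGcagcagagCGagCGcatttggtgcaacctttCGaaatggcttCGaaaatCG
*Gcm1*: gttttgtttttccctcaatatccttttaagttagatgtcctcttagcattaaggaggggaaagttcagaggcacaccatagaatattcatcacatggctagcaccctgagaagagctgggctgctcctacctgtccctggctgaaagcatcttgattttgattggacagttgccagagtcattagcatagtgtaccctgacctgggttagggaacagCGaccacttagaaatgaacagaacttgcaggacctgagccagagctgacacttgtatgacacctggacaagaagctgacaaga
In *Esx1* the CG lie partly in an alternating run in the downstream part of the window, in *Ascl2* and *Phlda2* they are spread over the window, and *Gcm1*, at 94.6% of promoters with as many or more, has a single one.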

How the data were processed

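The 15 RNA-seq libraries of sorted YS EMPs (E10.5) belong to 4 labelled groups. Per the submitters' processing notes, the authors aligned reads to GRCm38/mm10 with TopHat2 2.0.13, counted reads per gene with featureCounts, and deposited RPKM for 17454 genes.

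Library totals and whole reads were recovered from the RPKM steps. All 16877 genes above 0 gave whole reads within 0.0001 of a read, each total was given by at least 32 single-exon genes, and divisors of 114 genes with few reads were scaled to a GENCODE transcript length. Where a gene has reads in few libraries, its read numbers are the smallest that the steps allow. The cDNA was amplified by PCR, so intervals cover counting error only.

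Comparisons used R 4.3.3 with limma 3.58.1, fitted with lmFit and moderated by eBayes allowing a trend. Values were log2(RPKM + 0.2), genes that never exceeded 0.2 RPKM among the libraries fitted were dropped, p was adjusted by Benjamini-Hochberg across the genes tested, and 0.05 was the threshold. Fold changes on this scale understate changes of low genes. WT libraries of both lines were pooled. The labels do not assign libraries to experiments, so experiment was not modelled, and the sample numbers of the Tie2 (3 to 23) and Vav (26 to 38) libraries form separate blocks, so Cre line and experiment cannot be told apart. Exact permutation tests were used for members in Vav-Ezh2-KO against WT.

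The genes named were the 9 members, list genes that passed in a comparison with each list's most abundant gene, the 8 genes most like *Esx1*, genes within 1 Mb of it, and *Ezh2*. Others named were picked after their values were seen. The lists covered trophoblast stem and progenitor factors, labyrinth, spongiotrophoblast and glycogen cell, giant cell and other placenta-enriched genes, the *Rhox* cluster, EMP, visceral endoderm, extraembryonic mesoderm, decidua and primordial germ cell markers, Y-linked genes with *Xist*, and PRC2. Members and lists were chosen with earlier results of these data known. A listed gene is not reported here, and all list counts leave it out. Coordinates and promoters are RefSeq, GRCm38.p6. Alternatives were pseudocounts of 1 and 0.05, other filters, quantile normalization, a common median, no trend in eBayes, limma-voom with the recovered reads, WT libraries of the same line, all 15 libraries in one fit, and leaving out each library in turn. Leaving out the 2 libraries with visceral endoderm transcripts and list medians over genes above 0.2 RPKM in a WT (or Vav-Ezh2-KO) library were added after the data were seen.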

Additional observations from a re-analysis of the deposited data

Results flagged for a closer look

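Values were marked where 1 library lay far from the other 4 of its group on the log2(RPKM + 0.2) scale (Dixon's 95% limit on the gap over the range), for single genes only in groups with a library above 0.2 RPKM, or where the effects of the 2 deletions differed. Chance alone marks about 1 in 20 groups, but not where the other 4 libraries are at 0, as for *Rhox6* and *Hand1* below: there the gap equals the range, and any value above 0.2 RPKM is marked.

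Tie2-Ezh2-WT replicate 4 held *Rhox6* at 0.333 RPKM, from 3 reads, and the other WT libraries 0. Vav-Ezh2-WT replicate 4 held *Ascl2* at 0.0833 RPKM, and the other WT libraries 0.862 to 1.37 RPKM. Tie2-Ezh2-KO replicate 17 held *Hand1* at 0.360 RPKM, and the others of its group 0. The summed visceral endoderm markers were 223 RPKM in Tie2-Ezh2-WT replicate 4, beside 19.5 to 28.4 RPKM in the other WT libraries, and 297 RPKM in Tie2-Ezh2-KO replicate 7, beside 25.7 to 37.4 RPKM in its group. The summed other placenta-enriched genes were 157 RPKM in Tie2-Ezh2-KO replicate 13, beside 201 to 215 RPKM in its group.

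The effects of the 2 deletions, each against the WT of its own line, differed by 4.31 for *Esx1* (standard error 0.65; 4.81 with Tie2-Cre and 0.50 with Vav-Cre). This is a description, since the Tie2-Ezh2-KO values chose the gene. Of the 8 genes most like *Esx1*, which were picked by their likeness to it and so share its pattern, *Kdelr3* differed by 3.49, *Gatm* by 2.44, *Tcfl5* by 2.17 and *Acsl6* by 2.12.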

How the results depend on the processing

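In Tie2-Ezh2-KO against WT 386 genes passed, 187 with Tie2-Ezh2-WT libraries alone as WT, 217 without the 2 libraries with visceral endoderm transcripts (chosen after the data were seen), 262 to 438 with 1 library left out, and 305 to 493 otherwise. In Vav-Ezh2-KO against WT 1 gene passed, 1 to 2 with 1 library left out (2 without Tie2-Ezh2-WT replicate 10 or 12 or Vav-Ezh2-WT replicate 4), and 2 with Vav-Ezh2-WT libraries alone. In Tie2-Ezh2-KO against Vav-Ezh2-KO 495 passed, 372 of them higher, and 334 of 525 were higher after quantile normalization. Leaving out 1 library gave 320 (without Vav-Ezh2-KO replicate 28) to 969 (without Tie2-Ezh2-KO replicate 9). The cause was not tested.

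*Rhox6* turned from -0.12 to 0.08 with limma-voom in Tie2-Ezh2-KO against WT. *Rhox5*, 0.12 in Tie2-Ezh2-KO against Vav-Ezh2-KO, was -0.09 with a pseudocount of 1, -0.77 with limma-voom, -0.09 without the Tie2-Ezh2-KO library with visceral endoderm transcripts, and -0.79 to 1.04 with 1 library left out. Neither passed under any alternative, and the cause was not tested. No member changed its call. *Ascl2*, *Phlda2*, *Amn* and *Bmp4* kept their call against WT under all 21 alternatives. Of the 8 genes most like *Esx1* by Pearson's r, 2 were shared with Spearman's rho and 0 with r within Tie2-Ezh2-KO.

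No paired analysis was possible because groups compared share fewer than 2 replicate numbers. At the median total of 16091836 reads, genes under 0.2 RPKM rest on few reads, and a read of these PCR-amplified libraries is not an independent molecule.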
